A study of Mus musculus with 163 samples.

Results

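Inner hair cells (IHCs) of mouse cochleae that lacked the RNA-binding protein gene Rbm24 were compared with control IHCs at postnatal day 7. The cells were those whose count columns carry the Exp IHC label (26 cells) or the Ctrl IHC label (38 cells), 64 of the 163 cells of the series, and all genes were used. The other 99 cells are outer hair cells (OHCs) of the same genotypes, 43 Ctrl and 56 Exp, and their values stand beside a result only where named. Ctrl cells carried Atoh1P2A-Tdtomato/+, a modified Atoh1 allele that marks hair cells with a red fluorescent protein. Exp cells are labelled Atoh1P2A-Cre/P2A-Tdtomato/+ with Rbm24flox/flox, so that Cre made by hair cells removes the floxed gene. Fluorescent cells were hand-picked, and each was sequenced as its own full-length cDNA library. The genotypes differ in the Cre and in a further modified Atoh1 allele as well as in Rbm24, and these cannot be told apart here. How each picked cell was assigned as an IHC or an OHC is not given in the sources used here, and the labels' protocol speaks of picked IHCs and iOHCs.

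IHCs are the sensory cells that pass sound to the auditory nerve: they release glutamate at ribbon synapses when calcium enters through voltage-gated channels. Rbm24 encodes an RNA-binding protein of muscle and hair cells that is known to regulate splicing and the stability of transcripts. Each hair cell is born with a true cilium, the kinocilium, which helps to orient the bundle of actin-filled stereocilia and is lost from cochlear hair cells as they mature. A motile cilium is built on an axoneme, a ring of doublet microtubules that carries dynein arms, radial spokes and further regulatory complexes.

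No label names the animal that a cell came from. Each group was therefore treated as 1 sample, and no p-value, standard error over cells or test is given. A level is the counts of a gene summed over the cells of a group scaled to 1000000 counts in all (CPM), and a log2 ratio sets the Exp level over the Ctrl level, with a 95% exact interval that covers counting error only. Since reads lack molecular identifiers they do not stand for separate molecules, and the intervals are too narrow. Called means a ratio of at least 2-fold. A pair of levels is Ctrl then Exp. The spread between cells is given as the lowest, median and highest CPM per cell and as the share of cells at 10 CPM or more. An interval of a share is binomial over cells taken as independent draws, and that of a list median is over its genes. Neither covers the spread between animals.

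The libraries held 6.13e+06 to 1.37e+07 counts in Ctrl IHCs and 9.98e+06 to 1.81e+07 in Exp IHCs, and a median of 10209 and 10236 genes with a count. Thinned to the shallowest cell, the medians were 9764 and 9523.5 genes. Mitochondrially encoded genes made up 7.52% of the reads in the median Ctrl IHC and 4.77% in the median Exp IHC. Y-linked transcripts without Xist were found in 26 of 38 Ctrl IHCs and 7 of 26 Exp IHCs, and Xist without them in the other 12 and 19 cells, so that the sexes were mixed unequally. Genes of supporting cells, the epithelial cells that surround hair cells, summed to 100 CPM or more in 8 Ctrl IHCs and in no Exp IHC, with a highest cell of 2343 CPM against 79.0 CPM. The median cell went the other way, with 3.79 CPM in Ctrl IHCs and 18.2 CPM in Exp IHCs. Of those 20 genes, 9 were at 0 counts in all Exp IHCs (Sox10, Hes1, Gjb6, Slc1a3, Fabp7, Otog, Tecta, Ano1 and Aqp4). Others were present in Exp IHCs: Sox2 was at 10 CPM or more in 12 of 38 Ctrl IHCs and 12 of 26 Exp IHCs, and Hey2 in 0 and 4. The part of this difference in other ratios was measured by leaving those 8 cells out, and is given where it matters. The glial gene Pmp22 and the neuronal genes Prph and Scn9a were at 0 in every IHC.

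The deletion and the label were checked first. Rbm24 (chromosome 13, 46418434 to 46431095, plus strand, mm10) ranged over 202 to 921 CPM in Ctrl IHCs (median 408) and 0 to 15.6 CPM in Exp IHCs (median 0.129). No Exp IHC reached the lowest Ctrl IHC, and the summed level was 430.5 and 1.51 CPM in Ctrl and Exp IHCs (log2 ratio -8.15, -8.28 to -8.03, and -8.76 without the top cell of either group). Among the marker genes of IHCs, Slc17a8, which loads glutamate into synaptic vesicles, ranged over 66.0 to 629.8 CPM in Ctrl IHCs (median 210.4) and 8.69 to 349 CPM in Exp IHCs (median 89.8). Its groups overlapped, and the summed level was 2.29-fold lower in Exp IHCs (log2 -1.20, -1.21 to -1.18). Fgf8, a secreted growth factor made by IHCs, had 154 to 978 CPM in Ctrl IHCs (median 497) and 62.9 to 687 CPM in Exp IHCs (median 251), with a log2 ratio of -0.98 that falls just short of 2-fold. For Tbx2, a transcription factor of IHC fate, the values were 10.4 to 619 CPM in Ctrl IHCs (median 160.3) and 0 to 515 CPM in Exp IHCs (median 107). Its log2 ratio of -0.27 was -1.11 in the cells holding Y-linked transcripts and -0.63 in the cells with Xist. Slc17a8, Fgf8 and Tbx2 were each at 10 CPM or more in all 38 Ctrl IHCs. Of the 26 Exp IHCs, 25, 26 and 25 held them at that level. Among the other IHC genes, Otof, Calb2, Cabp2, Atp2a3 and Shtn1 were in every cell of both groups. Dnajc5b, Slc7a14, Brip1 and Nsmaf were in 34, 37, 27 and 29 Ctrl IHCs and in 1, 12, 14 and 21 Exp IHCs. Slc26a5, the motor protein gene of OHCs, stayed at or under 5.96 CPM in each Ctrl IHC and 12.6 CPM in each Exp IHC. Other OHC genes were in most IHCs, such as Sri and Chrna10 in 37 of 38 Ctrl and all 26 Exp IHCs. How well these genes part IHCs from OHCs was not tested.

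Of 14557 genes whose group levels average at least 1 CPM, 2734 (18.8%) were at least 2-fold higher and 1709 (11.7%) at least 2-fold lower in Exp IHCs. The median log2 ratio over all of them was 0.11 (quartiles -0.41 and 0.72), and each list of genes below is read against these shares. Higher genes made up 61.5% of the calls, but 45.7% when the median cell of each group was compared and 49.8% without the top cell of either group, gene by gene. By median cells 1360 genes were higher and 1616 lower, and without the top cells 2531 and 2549. Of the genes called by the summed levels, 762 higher and 442 lower ones were called the same way by median cells. Within the cells with Y-linked transcripts 3278 were higher and 3057 lower, and within the cells with Xist 3421 and 2505. Without the 8 Ctrl IHCs that hold supporting cell genes 2985 were higher and 1650 lower. A list's counts under one of these settings are read against the counts of that setting. At 10 CPM or more, 1014 of 9122 genes were higher and 518 lower. In a principal component analysis of the 1996 most variable genes, sex-linked transcripts left out, component 1 (8.24% of the variance) ran from -52.8 to 1.5 in Ctrl IHCs and from 5.3 to 59.7 in Exp IHCs. The genotypes did not overlap on it, while component 2 (5.34%) mixed them.

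**Figure D1:**
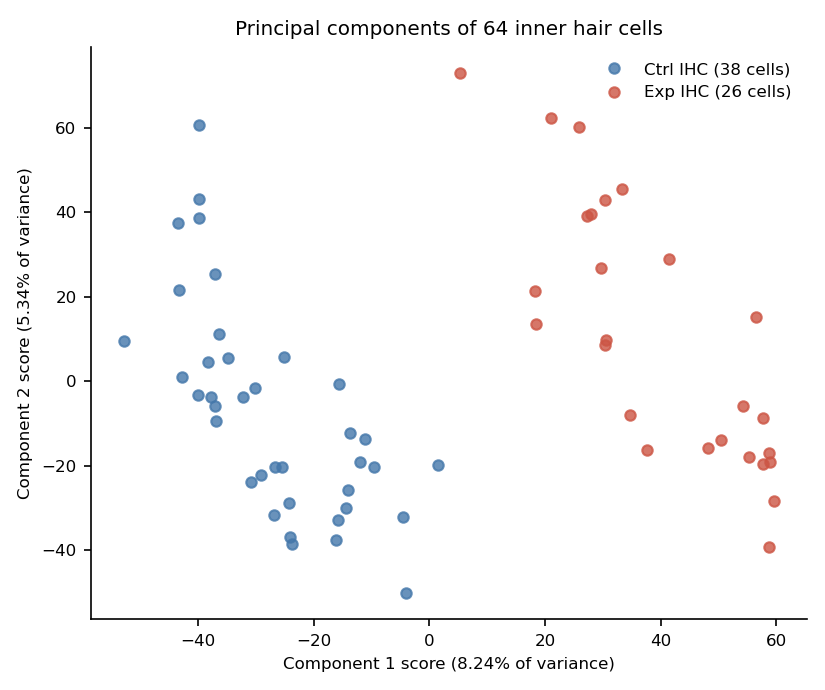
Scores of 64 inner hair cells on the first components of log2 levels of 1996 variable genes, 1 point per cell, with Ctrl cells in blue and Exp cells in red. Every Ctrl cell lies at or below 1.5 on component 1 and every Exp cell at or above 5.3.

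The cells of the groups overlapped for nearly every gene. In 3 genes every Exp IHC lay below every Ctrl IHC (0.0206% of genes tested) and in 1 gene every Exp IHC lay above (0.00687%). Rbm24 was among the 3. Ppp1r1a (chromosome 15, 103530279 to 103538003, minus strand), an inhibitor of protein phosphatase 1 that is switched on by cyclic AMP signalling, had 52.5 to 412 CPM in Ctrl IHCs (median 153) and 0 to 46.4 CPM in Exp IHCs (median 0). Its log2 ratio was -5.49, -5.57 to -5.41 (-6.35 without the top cell of either group), and 3 Exp IHCs kept 10 CPM or more. Ocm (chromosome 5, 144019804 to 144026670, minus strand), the calcium buffer oncomodulin, ranged from 0.331 to 159.5 CPM (median 26.2) in Ctrl IHCs and never passed 0.118 CPM in Exp IHCs. The lowest Ctrl IHC for Ocm lay close to that bound, and after thinning to equal depth only 3 genes in all kept groups apart. The gene that was higher in each Exp IHC was Mogat1 (chromosome 1, 78510991 to 78538173, plus strand), an acyltransferase that makes diacylglycerol. It ranged over 0 to 123 CPM in Ctrl IHCs (median 25.2) and 128 to 665 CPM in Exp IHCs (median 311). Its log2 ratio was 3.18, 3.16 to 3.21, and it was 3.39 and 3.48 within the cells with Y-linked transcripts and with Xist.

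**Figure D2:**
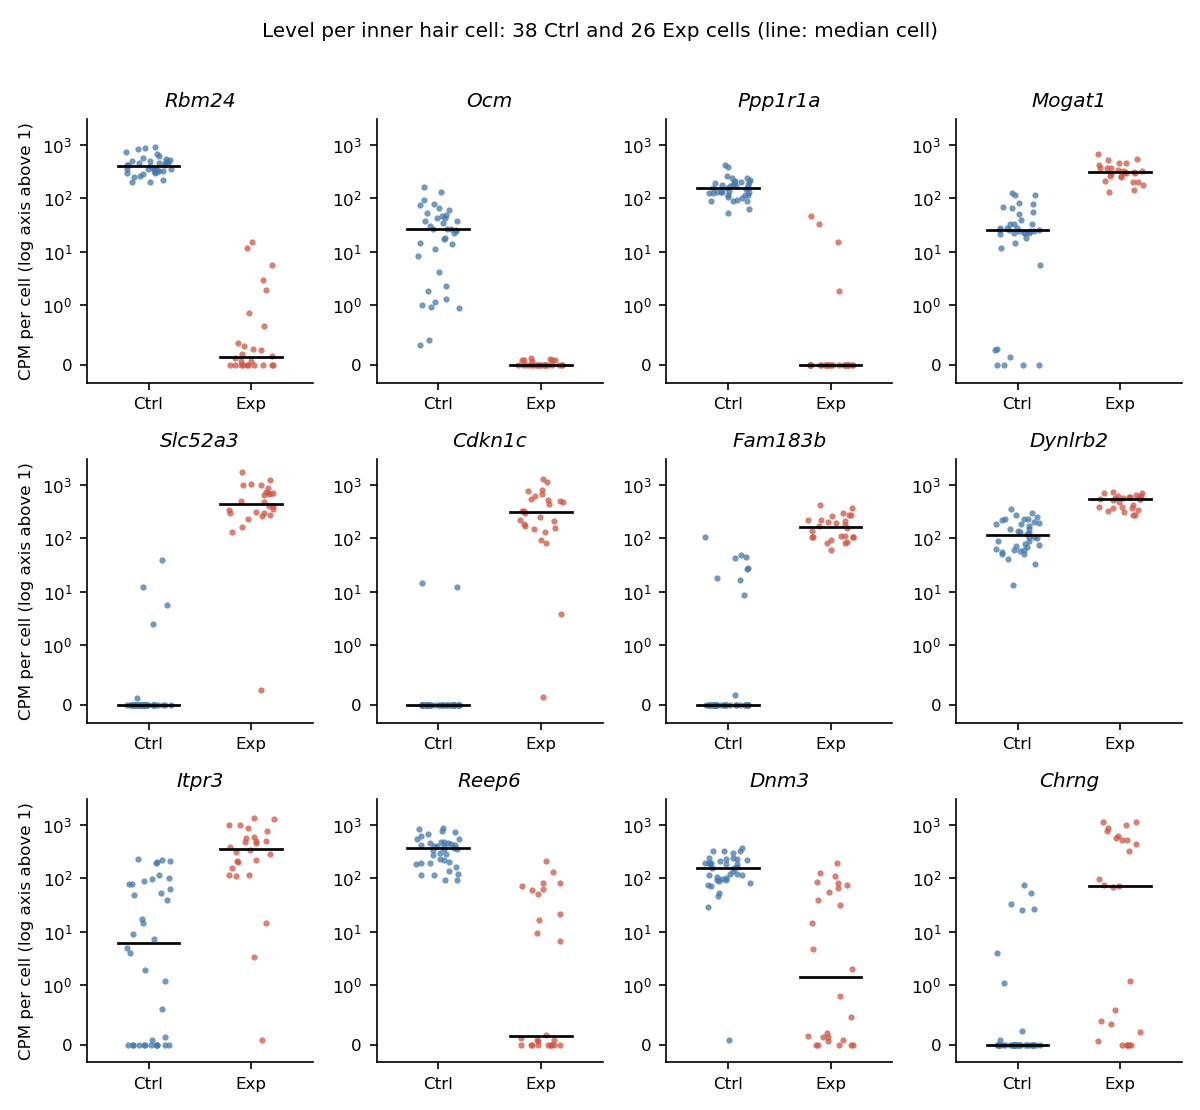
CPM per cell on an axis that is linear up to 1 and logarithmic above, for 12 genes, with 38 Ctrl cells in blue, 26 Exp cells in red and a line at the median cell. Rbm24, Ocm, Ppp1r1a and Mogat1 are the genes whose groups do not overlap, while Chrng and Reep6 are at 10 CPM or more in 15 and 10 of the 26 Exp cells.

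Genes of the motile axoneme formed the list that differed most from the background toward higher levels. Of 70 genes, 64 passed 1 CPM: 51 were at least 2-fold higher in Exp IHCs, against 18.8% of all genes, and none was 2-fold lower. Cfap161, Ccdc113, Dnah9, Rsph4a, Nek5, Tekt4 and Dnah5 were under 1 CPM in Ctrl IHCs and passed the filter only by their Exp level. The same filter was used for all genes. The median log2 ratio over the 64 genes was 1.88, 1.67 to 2.37. The ratio lay between 1 and 2 for 22 members, between 2 and 4 for 19, and at 4 or above for 10. Another 10 were higher by less than 2-fold, and 3 (Dnaaf5, Hydin and Dnali1) were lower by less than 2-fold. Summed over the 64 genes, the level per cell was 787 to 4025 CPM in Ctrl IHCs (median 1736) and 3568 to 9827 CPM in Exp IHCs (median 6451). That sum in 24 of 26 Exp IHCs was above the highest Ctrl IHC, and 37 of 38 Ctrl IHCs lay below the lowest Exp IHC. A Ctrl IHC held 11 to 43 of the genes at 10 CPM or more (median 23) and an Exp IHC 22 to 55 (median 44). The number of members called was 55 in the cells holding Y-linked transcripts, 47 in the cells with Xist and 53 without the 8 Ctrl IHCs that hold supporting cell genes. This list was drawn up with earlier results of these data known, and Nek5 and Fam92b had been put on it with their OHC ratios known.

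**Figure D3:**
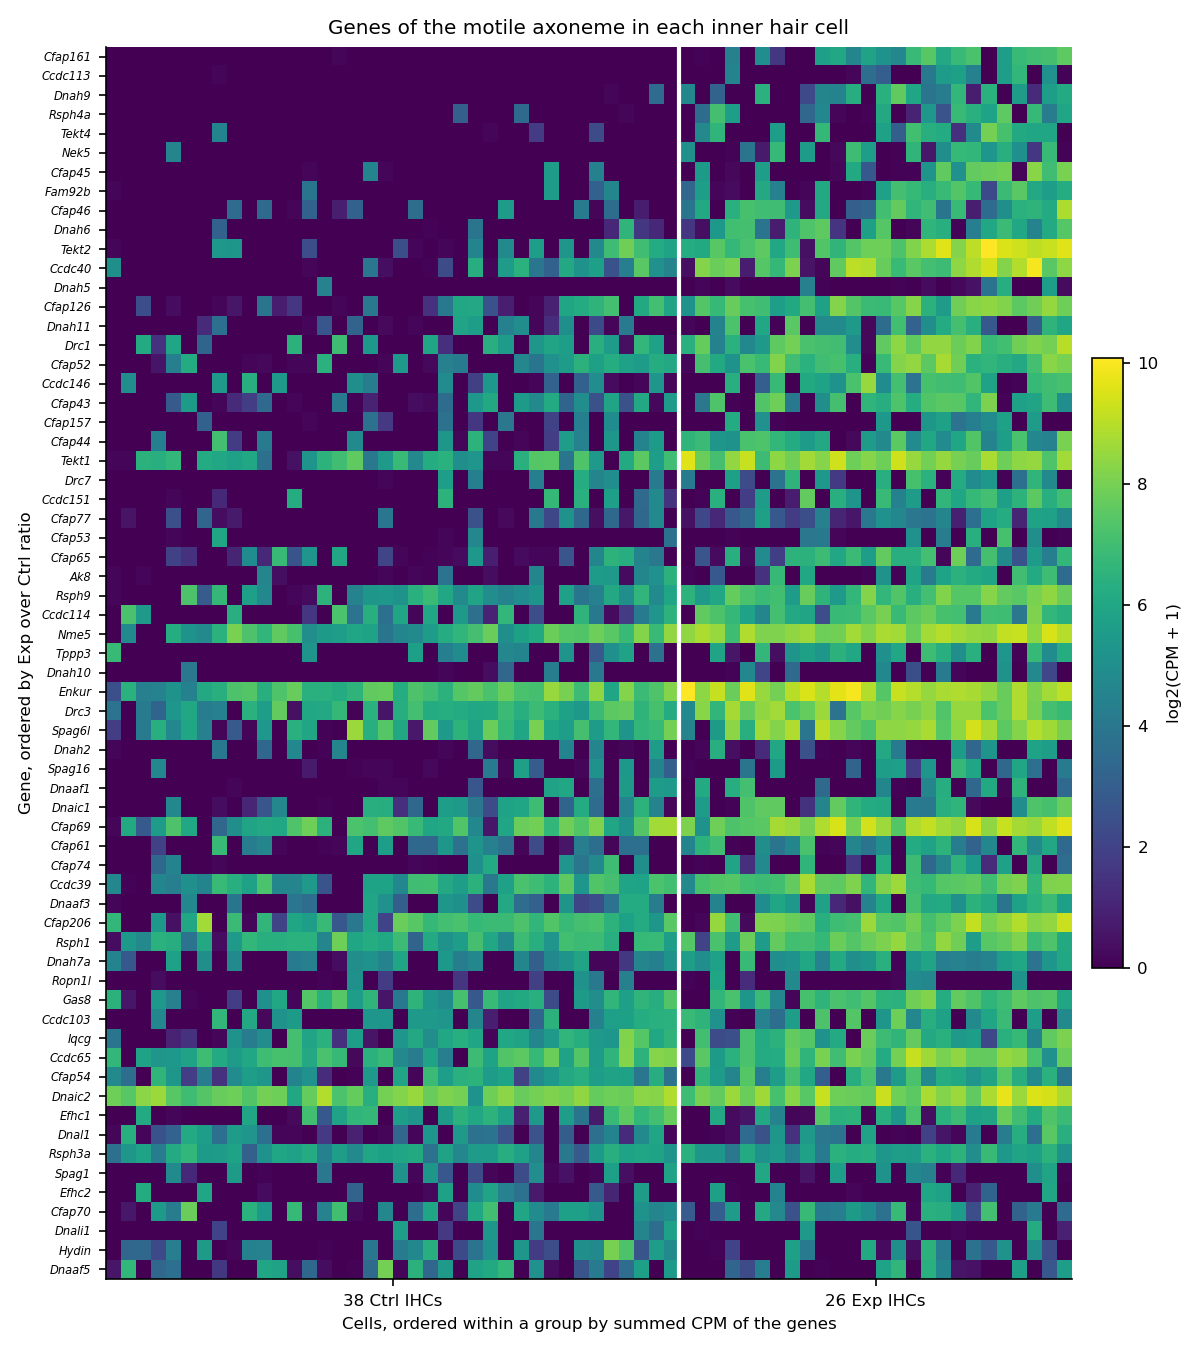
Heat map of log2(CPM + 1) for 64 axoneme genes (rows, ordered by ratio) in 38 Ctrl and 26 Exp cells (columns, ordered within a group by summed level). The upper rows are dark in nearly all Ctrl cells and bright in many Exp cells, and rows such as Dnaic2 and Rsph3a are bright in both groups.

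Tekt2 and Ccdc40 were the axoneme genes with the largest ratio between median cells, 1 CPM added to each. Tekt2, a filament protein inside the microtubule doublets, had 0 to 237 CPM in Ctrl IHCs (median 0) and 0.387 to 1081 CPM in Exp IHCs (median 209). It was at 10 CPM or more in 12 of 38 Ctrl IHCs (31.6%, 17.5% to 48.6%) and 25 of 26 Exp IHCs (96.2%, 80.4% to 99.9%), with a log2 ratio of 3.87, 3.84 to 3.90. Ccdc40, part of the ruler that sets the repeat of the dynein arms, was at 17.8 and 253 CPM (log2 3.84) and at 10 CPM or more in 13 of 38 Ctrl IHCs and 22 of 26 Exp IHCs. Cfap161 had 1 count in all Ctrl IHCs and 20720 counts in Exp IHCs, a log2 ratio of 14.27 with a counting interval of 11.79 to 19.58. It was at 10 CPM or more in 18 Exp IHCs, so that 8 Exp IHCs were without it at that level. Dnah6 and Dnah9 encode motor heavy chains of the dynein arms. Dnah6 was at 3.11 and 66.8 CPM (Ctrl and Exp) (log2 4.43), and 1 Ctrl IHC gave 79.0% of its Ctrl level: without the top cell of either group its ratio was 6.41. Dnah9 was at 0.364 and 37.3 CPM (log2 6.68, 6.42 to 6.94) and in 1 of 38 Ctrl IHCs and 15 of 26 Exp IHCs, and 1 Ctrl IHC gave 98.9% of its Ctrl level. Members also differed in how many cells held them: 18 were at 10 CPM or more in at least 90% of Exp IHCs, and 5 in at least 90% of Ctrl IHCs. Enkur, Nme5, Tekt1 and Cfap126 were in all 26 Exp IHCs, whereas Dnah5, Dnah10 and Ropn1l were in 4, 6 and 5 of them. For 59 of the 64 members the share of cells was larger in Exp than in Ctrl IHCs.

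**Figure D4:**
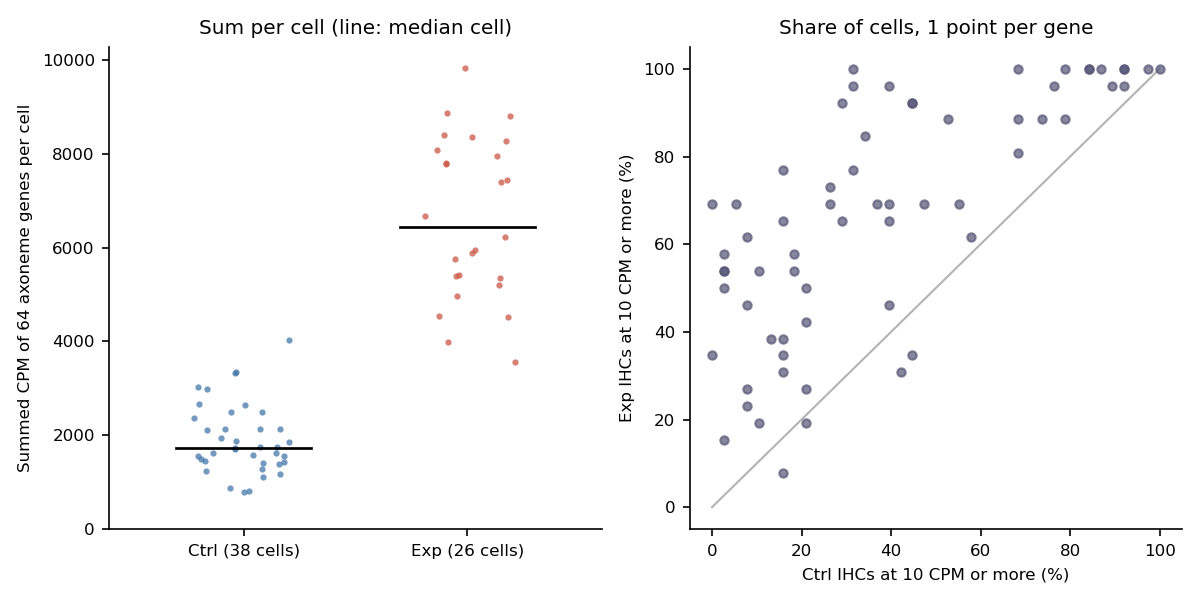
Left, summed CPM of 64 axoneme genes in each cell with a line at the median cell; right, share of Ctrl and Exp cells at 10 CPM or more, 1 point per gene, with the line of equal shares. The Ctrl sums lie between 787 and 4025 CPM and the Exp sums between 3568 and 9827 CPM, and 59 points lie above the line.

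Promoters of the axoneme genes were searched for the X-box, the palindromic site of the RFX transcription factors of ciliated cells, in RefSeq promoters (GRCm38.p6, 250 bases before to 50 after the start), on both strands. Of the 64 members 51 had a promoter in that table, and the patterns were searched with the ratios known. The short arm of the site, GTTGCC, was in 22 of the 51 (43.1%) and in 14.1% of 27025 genes with a promoter. Of the 10102 tested genes with a promoter 15.5% held it. Genes of intraflagellar transport and the BBSome, described below, held it as often, in 15 of 34 (44.1%). In the axoneme list the arm was in 18 of the 41 called members with a promoter and in 4 of the 10 others. The shares of called members (43.9%) and of members within 2-fold (40.0%) were thus near each other. Among all genes 2-fold higher and 2-fold lower in Exp IHCs the arm was in 18.2% and 12.8%. A shorter full pattern, with the arms GTTNCC and GNAAC and 2 free bases between them, was in 6 of the 51 (11.8%) and in 0.777% of all genes. The symmetric pattern of GTTNCC, 2 free bases and GGNAAC was in 1 of the 51 (1.96%) and 0.529% of all genes, and its looser form of GTTNCC, 2 free bases and GGNNAC in 5 (9.8%) and 1.49%. The other 4 forms that were tried were in none of the 51: GTTGCC, AT and GGCAAC, then GTTNCC, AT and GGNAAC, then GTTNCC, 3 free bases and GGNAAC, then GTNGCC, 2 free bases and GGNAAC. The repeat GTGTGTG was in 4 of the 51 (7.84%) and 8.91% of all genes. In the 34 transport and BBSome genes the shorter, symmetric and looser patterns were in 5.88%, 5.88% and 17.6%, and the form with GTNGCC in 14.7%. Among tested genes these 4 were in 0.792%, 0.713%, 2.19% and 1.04%. All these patterns overlap each other, and a match is not a site in use. The 80-base stretches that hold the shorter pattern in the axoneme genes Tekt2 and Dnah9 are shown because both genes are described above. Capitals mark the match, which is the pattern as written in Dnah9 and its reverse complement in Tekt2. The Tekt2 stretch is chr4:126325689-126325768 and the Dnah9 stretch chr11:66168587-66168666, both on the minus strand, upstream of the start.
Tekt2: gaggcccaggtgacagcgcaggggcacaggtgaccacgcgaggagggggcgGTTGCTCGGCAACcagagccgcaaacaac
Dnah9: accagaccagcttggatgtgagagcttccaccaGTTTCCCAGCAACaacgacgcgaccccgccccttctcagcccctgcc

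Genes that build any cilium were called less often than those of the axoneme. Of 39 genes of intraflagellar transport, the traffic of cargo along the cilium, and of the BBSome, 7 were at least 2-fold higher and none lower (median log2 0.63, 0.29 to 0.83), a share near that of all genes. Ift57 ranged over 0 to 138 CPM in Ctrl IHCs (median 36.3) and 0 to 324 CPM in Exp IHCs (median 115), with a log2 ratio of 1.62, and Ift43 was 2.58-fold higher (30.3 and 78.2 CPM). Among 31 genes of ciliogenesis and the centriole 10 were at least 2-fold higher and 1 at least 2-fold lower (median 0.56, 0.02 to 1.08). The transition zone gene Tmem67 was at 14.7 and 48.9 CPM and Cep164, which docks the centriole at the membrane, at 6.86 and 21.8 CPM. Cep164 was in 8 of 38 Ctrl IHCs and 16 of 26 Exp IHCs at 10 CPM or more. Compared by median cells, the median of the centriole list was 0.11, and within the cells with Y-linked transcripts 0.26. Dynlrb2, a light chain of the dynein that returns cargo along the cilium, stood out among 43 motor and microtubule-binding genes. It had 13.4 to 358 CPM in Ctrl IHCs (median 113) and 273 to 722 CPM in Exp IHCs (median 543), and the share of pairs of cells in which the Exp cell was higher was 99.3%. In that list 9 were at least 2-fold higher and 2 at least 2-fold lower (median 0.18). Kif9, a kinesin of motile cilia, was at 41.1 and 129 CPM. Kif21b, a kinesin of neurons, was 2.15-fold lower (154 and 71.8 CPM). Among 34 tubulins and their modifiers 7 were at least 2-fold higher and 5 at least 2-fold lower: Agbl4, an enzyme that trims polyglutamate chains from tubulin, was at 5.96 and 52.9 CPM (log2 3.15) and at 10 CPM or more in 6 of 38 Ctrl IHCs and 22 of 26 Exp IHCs. The alpha-tubulin gene Tuba8 went the other way, with 0 to 496 CPM in Ctrl IHCs (median 197) and 0 to 179 CPM in Exp IHCs (median 0.144).

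Genes with the largest higher ratio between median cells were near 0 in the median Ctrl IHC, which a choice by that ratio favours. Slc52a3 (chromosome 2, 151996511 to 152009258, plus strand), a riboflavin transporter, had 0 to 39.8 CPM in Ctrl IHCs (median 0) and 0.251 to 1713 CPM in Exp IHCs (median 436). It reached 10 CPM in 2 of 38 Ctrl IHCs (5.26%, 0.644% to 17.8%) and 25 of 26 Exp IHCs (96.2%, 80.4% to 99.9%), and its log2 ratio was 8.17, 8.06 to 8.29 (9.93 without the top cell of either group). Cdkn1c (chromosome 7, 143458339 to 143461050, minus strand), the cyclin-dependent kinase inhibitor p57, had 0 to 14.8 CPM in Ctrl IHCs (median 0) and 0.128 to 1297 CPM in Exp IHCs (median 308). Its log2 ratio was 9.19, 9.00 to 9.38 (10.15 without the top cells), and 24 of 26 Exp IHCs held it at 10 CPM or more. Both genes were rare in Ctrl IHCs and present in most Exp IHCs. Faim2, an inhibitor of Fas-induced death in neurons, had 0 to 179 CPM in Ctrl IHCs (median 0.668) and 9.85 to 755 CPM in Exp IHCs (median 331). Its log2 ratio was 3.80 in IHCs, and in OHCs the same genotypes gave -0.11, a difference that was not tested. Tmem173, which encodes the DNA-sensing adaptor STING, was at 0.0425 CPM in the median Ctrl IHC and 269.8 CPM in the median Exp IHC, and 21 of 26 Exp IHCs reached 10 CPM. Hpgd, which inactivates prostaglandins, was at 0 CPM in the median Ctrl IHC and 163 CPM in the median Exp IHC (log2 3.41). Igsf21, an adhesion protein of inhibitory synapses, was at 0 CPM in the median Ctrl IHC and 168 CPM in the median Exp IHC. The axoneme genes Tekt2 and Ccdc40 were also among the 12 highest, with 2410004P03Rik, Smim5, Fam183b and Fam81b. Fam183b was at 10 CPM or more in all 26 Exp IHCs and in 8 of 38 Ctrl IHCs, and Fam81b in all 26 and in 16.

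Other genes were picked for a rise in the share of cells, a choice that favours genes nearly absent from Ctrl IHCs and present in part of the Exp IHCs. By the gain in the share of cells, and with no more than 75% of Exp IHCs at 10 CPM, the leading genes were Cfap161, Nacad, Spag8, Cel, Dnah6, Gng3, Cd63-ps and Ly6e. Nacad, a relative of the nascent polypeptide complex, had 1 count in Ctrl IHCs and was at 10 CPM or more in 18 of 26 Exp IHCs (log2 13.76, counting interval 11.28 to 19.06). Spag8, a microtubule inner protein of cilia and sperm tails, had 14 counts in Ctrl IHCs and 91.0 CPM in Exp IHCs, where 17 cells held it. Cel, a lipase best known from the pancreas, was at 2.61 and 179 CPM and in 2 of 38 Ctrl IHCs and 18 of 26 Exp IHCs. For Gng3, a G protein gamma subunit of neurons, the levels were 1.93 and 101 CPM, and 17 Exp IHCs passed 10 CPM. Gng3 overlaps Bscl2 on the other strand (33.1 and 31.2 CPM in Ctrl and Exp IHCs), and whether the counting used strand is not given in the sources used here. The same limit holds for Cnp, Fabp3, Kcnh7, Kcnab1, Ccnd1, Cap2, Dnm3, Dnah9, Fam81b, Tmem67, Lsr, Tmod1, Polg, Nefm and 3110045C21Rik, which also overlap a gene at 1 CPM or more. Cd63-ps is a processed copy of Cd63, so that its counts may include reads of that gene. Ly6e, a surface protein, was in 1 Ctrl IHC and 16 Exp IHCs at that level, and 1 Ctrl IHC held 97.0% of its Ctrl level. Without the top cell of either group the log2 ratios of Spag8, Cel, Gng3 and Ly6e were 11.86, 8.45, 7.09 and 10.42, against 11.15, 6.10, 5.72 and 6.07 with all cells, and no Ctrl count of Cfap161 or Nacad was left. The acetylcholine receptor gamma subunit Chrng, best known from fetal muscle, had 0 to 73.5 CPM in Ctrl IHCs (median 0) and 0 to 1124 CPM in Exp IHCs (median 72.0). It was at 10 CPM or more in 15 of 26 Exp IHCs and near 0 in the rest.

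The genes with the largest lower ratio between median cells were, for the most part, present in nearly every Ctrl IHC and near 0 in most Exp IHCs. A choice by that ratio favours such genes. Gm5737, a predicted gene, had 0 to 1527 CPM in Ctrl IHCs (median 623) and 0 to 44.2 CPM in Exp IHCs (median 0) (log2 -6.62, -6.68 to -6.56). Reep6, which shapes membranes of the endoplasmic reticulum, had 90.8 to 851 CPM in Ctrl IHCs (median 359.6) and 0 to 208 CPM in Exp IHCs (median 0.136). All 38 Ctrl IHCs were at 10 CPM or more, and of the Exp IHCs 10 were and 16 were not. Akr1b3, an aldose reductase of the sorbitol pathway, was at 75.7 CPM in the median Ctrl IHC and 0 CPM in the median Exp IHC (log2 -4.67), and in 31 of 38 Ctrl IHCs and 4 of 26 Exp IHCs. Dnajc5b, a relative of the synaptic vesicle chaperone Dnajc5, was at 103 CPM in the median Ctrl IHC and 0 CPM in the median Exp IHC, and 1 Exp IHC held 97.8% of what was left. Its log2 ratio was -7.25 in IHCs (-12.49 without the top cells) and 5.29 in OHCs, where the levels were only 0.0476 and 1.87 CPM, and the difference was not tested. Otos, known as a product of fibrocytes of the cochlea, was at 163 CPM in the median Ctrl IHC and 0.0692 CPM in the median Exp IHC. Its ratio was as large without the 8 Ctrl IHCs that hold supporting cell genes (-3.42 against -3.39). Those cells were chosen by supporting cell genes and not by fibrocyte genes, so that transcripts carried over from fibrocytes were not tested. Kctd20 and Tmem109 were at -2.34 and -2.15 on the log2 scale, and A530016L24Rik at -3.73. The Y-linked Eif2s3y, also among these genes, was -1.36 over all cells and 0.03 in the cells holding Y-linked transcripts, next to the unequal mix of sexes.

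Some genes held by most but not all Ctrl IHCs were under 10 CPM in nearly all Exp IHCs. Most of those below were picked for a fall in the share of cells, which favours that pattern. Ang4, of the angiogenin family, was at 10 CPM or more in 24 of 38 Ctrl IHCs (49.7 CPM in the sum) and had 0 counts in 26 Exp IHCs, at least 6038-fold lower by the limit of 3 counts over the group. Angiogenin genes are near copies of each other, which makes the value of any 1 of them uncertain. Ccnd1, cyclin D1, had 0 to 221 CPM in Ctrl IHCs (median 34.2) and 0 to 2.23 CPM in Exp IHCs (median 0), at 10 CPM or more in 24 of 38 Ctrl IHCs and in none of the 26 Exp IHCs. Rorb, a nuclear receptor, was at 89.2 and 6.04 CPM (log2 -3.88, -3.95 to -3.82) and in 27 of 38 Ctrl IHCs and 3 of 26 Exp IHCs. Bin1, which bends membranes in endocytosis and muscle, was at 44.0 and 6.79 CPM and in 28 of 38 Ctrl IHCs and 3 of 26 Exp IHCs. Tmprss7, Frmpd4 and 3110045C21Rik were at 10 CPM or more in 24, 28 and 25 Ctrl IHCs and in 1, 4 and 2 Exp IHCs. Of the Exp level of Tmprss7, 93.7% came from 1 cell, and without the top cell of either group its log2 ratio was -7.24 in place of -3.14. By the same step Bin1 was -4.05 in place of -2.70, Rorb -4.87 in place of -3.88, Frmpd4 -3.03 in place of -2.30 and 3110045C21Rik -4.85 in place of -3.55, and Ccnd1 (-9.16) had no Exp count left. Slc47a2, an exporter of organic cations, had 0 counts in Exp IHCs and 20.8 CPM in Ctrl IHCs, at least 2530-fold lower.

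Axon guidance genes and cadherins were higher more often than the background. Of 31 ligands and receptors of axon guidance 16 were at least 2-fold higher and 3 at least 2-fold lower (median 1.06, 0.23 to 1.58). Plxnb2, a semaphorin receptor, had 0 to 99.7 CPM in Ctrl IHCs (median 1.03) and 0 to 316 CPM in Exp IHCs (median 61.8), and Unc5a, a netrin receptor, was in 10 of 38 Ctrl IHCs and 15 of 26 Exp IHCs at 10 CPM or more. Many members were near 0 in most cells of both groups. By median cells the median of the list was 0.10, with 12 of 31 members called higher, next to 1360 of all 14557 genes. Within the cells with Y-linked transcripts 10 members were called higher, and in the cells with Xist 16, next to 3278 and 3421 of all genes. Of 26 cadherins and adhesion genes 8 were at least 2-fold higher and 1 at least 2-fold lower (median 0.61, 0.18 to 1.37, and 0.08 by median cells). Cadm1, which joins cells at synapses and epithelia, was at 5.67 and 92.7 CPM and at 10 CPM or more in 4 of 38 Ctrl IHCs and 21 of 26 Exp IHCs. Ctnna2, an alpha-catenin of neurons, was at 9.00 and 43.7 CPM. Among 27 junction genes 4 were at least 2-fold higher and 3 at least 2-fold lower: Lsr, a protein of tricellular junctions, was at 9.35 and 22.1 CPM, and the tight junction protein Cgn at 121 and 42.7 CPM. Matrix and integrin genes were split, with 9 of 31 higher and 11 lower. Without the 8 Ctrl IHCs that hold supporting cell genes, 12 were higher and 7 lower, so that the count moved with those cells. Col18a1 was at 7.34 and 37.0 CPM and in 3 of 38 Ctrl IHCs and 15 of 26 Exp IHCs.

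Among genes of secretion, 5 of 9 neuropeptide and granule genes were at least 2-fold higher and none lower (median 1.55, 0.14 to 3.89). Chga, chromogranin A of dense-core granules, had 0.104 to 251 CPM in Ctrl IHCs (median 81.9) and 0 to 925 CPM in Exp IHCs (median 188). Pcsk1, which cleaves prohormones, was in 8 of 38 Ctrl IHCs and 14 of 26 Exp IHCs at 10 CPM or more. By median cells the list's median was 0.19. Of 41 genes of synaptic vesicles and the active zone 8 were at least 2-fold higher and 3 at least 2-fold lower (median 0.27, 0.02 to 0.80). The calcium sensor Syt1 was at 45.1 and 107 CPM. Slc17a8 was 1 of the 3 lower genes. Of 39 genes of endocytosis and Rab traffic 6 were at least 2-fold higher and 6 at least 2-fold lower (median 0.07). Rab3b, a small GTPase of regulated secretion, had 0 to 223 CPM in Ctrl IHCs (median 8.87) and 0 to 936 CPM in Exp IHCs (median 247) (log2 2.90), and Rab27b was at 24.6 and 145 CPM. Dnm3, a dynamin that cuts vesicles from the membrane, had 0.0827 to 360.3 CPM in Ctrl IHCs (median 157) and 0 to 189 CPM in Exp IHCs (median 1.40) (log2 -2.24). The ratio of Dnm3 was -0.24 in OHCs.

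Ion channels and receptors were called in both directions. Of 30 calcium and sodium channel genes 15 were at least 2-fold higher and 3 at least 2-fold lower (median 0.87, -0.03 to 1.25). By median cells 5 of the 30 were called higher, next to 1360 of all 14557 genes. Itpr3, a calcium release channel of the endoplasmic reticulum, had 0 to 224 CPM in Ctrl IHCs (median 6.06) and 0.0799 to 1358 CPM in Exp IHCs (median 353). Its log2 ratio was 3.28, 3.25 to 3.30, and it passed 10 CPM in 17 of 38 Ctrl IHCs and 24 of 26 Exp IHCs. Cacna2d2, an accessory subunit of voltage-gated calcium channels, had 0 to 34.6 CPM in Ctrl IHCs (median 4.95) and 1.04 to 153 CPM in Exp IHCs (median 55.4) (log2 3.13). Among 28 potassium channel genes 7 were at least 2-fold higher and 6 at least 2-fold lower (median 0.12). Kcnh7 was at 99.2 and 227 CPM and in all 26 Exp IHCs at 10 CPM or more. The beta subunits parted, with Kcnab2 at 25.1 and 64.6 CPM and Kcnab1 at 122 and 23.1 CPM. Kcnma1, the BK channel that speeds the receptor potential of mature IHCs, was 2.57-fold lower, with 0.128 to 335 CPM in Ctrl IHCs (median 61.5) and 0 to 123 CPM in Exp IHCs (median 14.1). Among 41 chloride channels and transporters 6 were at least 2-fold higher and 5 at least 2-fold lower. Car7, a carbonic anhydrase on that list, had 131 to 1213 CPM in Ctrl IHCs (median 563) and 0 to 452 CPM in Exp IHCs (median 37.4) (log2 -2.73, -2.75 to -2.72), and 14 of 26 Exp IHCs kept 10 CPM. Of 16 glutamate, GABA and glycine genes 7 were higher and 6 lower, and by median cells 2 and 1. Gad2 from this list, which makes GABA, was at 25.3 and 98.0 CPM and in 18 of 38 Ctrl IHCs and 21 of 26 Exp IHCs. Of 18 monoamine, purine and acetylcholine receptor genes 7 were higher and 2 lower, and by median cells 1 and 2. Over all 14557 genes the counts by median cells were 1360 higher and 1616 lower.

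Calcium-binding proteins leaned toward lower levels. Of 34 calcium buffers and EF-hand proteins 1 was at least 2-fold higher and 9 at least 2-fold lower (median -0.34, -0.94 to 0.08), against 11.7% of all genes lower. Summed over the list, the level per cell was 47910 to 71920 CPM in Ctrl IHCs (median 56290) and 35180 to 54270 CPM in Exp IHCs (median 43490). In 20 of 26 Exp IHCs that sum was below the lowest Ctrl IHC. Calb2, the buffer calretinin, had 879.9 to 9462 CPM in Ctrl IHCs (median 5592) and 596 to 4252 CPM in Exp IHCs (median 1488) (log2 -1.60). Of 12 IHC genes none was higher and 4 lower (median -0.86, -1.60 to -0.30), and Slc7a14, a lysosomal transporter on that list, was in 37 of 38 Ctrl IHCs and 12 of 26 Exp IHCs at 10 CPM or more. Of 9 OHC genes Tmod1, which caps actin filaments, was higher (58.0 and 127 CPM), and Ocm and Strip2 were lower, the latter at 383 and 119 CPM. The 12 genes common to all hair cells were within 2-fold (median 0.09). Their summed level per cell was 12480 to 19300 CPM in Ctrl IHCs (median 14830) and 8889 to 16050 CPM in Exp IHCs (median 12510), and 13 of 26 Exp IHCs lay below the lowest Ctrl IHC. Of these 12 genes 7 were higher and 5 lower, so that the lower sum rests on abundant members. Cib2, a calcium-binding partner of the transduction channel, was the highest of the 12 in these summed counts, at 4317 and 3695 CPM. Pvalb was at 3520 and 2252 CPM, Otof, also on the IHC list, at 2547 and 1696 CPM, and Myo6 at 1977 and 2152 CPM.

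Medians of the lists of signalling pathways lay between -0.23 (Hippo) and 0.45 (Hedgehog). Of 22 Notch genes 6 were at least 2-fold higher and 3 at least 2-fold lower. Hes6, a factor that favours differentiation, was at 116 and 239 CPM, and Adam10, which cuts the Notch receptor, at 37.2 and 81.4 CPM. Of 24 Wnt genes 5 were at least 2-fold higher and 1 at least 2-fold lower. Nkd1, an inhibitor that Wnt signalling itself induces, had 0 to 44.2 CPM in Ctrl IHCs (median 0) and 0 to 576 CPM in Exp IHCs (median 53.4) (log2 4.26, 4.19 to 4.33), and Dkk3 was in 4 of 38 Ctrl IHCs and 15 of 26 Exp IHCs. Of 31 genes of the BMP and TGF-beta pathway 6 were at least 2-fold higher and 3 at least 2-fold lower. Id2, a target of BMP signals that blocks bHLH factors, had 0 to 250.2 CPM in Ctrl IHCs (median 52.7) and 0 to 703 CPM in Exp IHCs (median 304). It was 4.79-fold higher (log2 2.26, 2.24 to 2.28) and in 29 of 38 Ctrl IHCs and 25 of 26 Exp IHCs at 10 CPM or more. Id1 was 1.19 on the log2 scale in IHCs and -1.85 in OHCs. Of 24 FGF and MAPK genes 6 were at least 2-fold higher and 4 at least 2-fold lower: Spred1, an inhibitor of Ras signalling, was at 28.8 and 3.73 CPM and in 21 of 38 Ctrl IHCs and 3 of 26 Exp IHCs, and Mapk10, a Jun kinase of neurons, at 20.1 and 69.7 CPM. Among 29 genes of insulin, IGF and mTOR 6 were at least 2-fold higher and 4 at least 2-fold lower. Igfbp5, which binds IGFs, had 0 to 715 CPM in Ctrl IHCs (median 1.24) and 1.69 to 669 CPM in Exp IHCs (median 172), and Sesn3, a brake on mTOR, was at 29.8 and 13.5 CPM. For 26 genes of cyclic nucleotides 5 were at least 2-fold higher and 3 at least 2-fold lower, with the phosphodiesterase Pde1c at 4.28 and 42.9 CPM. Of 25 G protein and RGS genes 6 were at least 2-fold higher and 3 at least 2-fold lower, and Gnao1 was at 11.5 and 27.0 CPM. In the Hedgehog list the co-receptor Boc was at 4.70 and 25.4 CPM, with 2 of 7 genes higher and 1 lower. Nf2, a tumour suppressor upstream in the Hippo cascade, was 2.54-fold lower (230.5 and 90.7 CPM) while Ccn1, a target of that pathway, was at 56.6 and 127 CPM. For Ccn1 fewer Exp than Ctrl IHCs passed 10 CPM (11 of 26 against 21 of 38), and 1 Exp IHC gave 61.5% of its Exp level. In the Hippo list 1 was at least 2-fold higher and 2 at least 2-fold lower, of 13. Crym, which binds thyroid hormone, was at 3.79 and 59.8 CPM and in 3 of 38 Ctrl IHCs and 15 of 26 Exp IHCs, and Rxra at 22.0 and 52.9 CPM, among 11 genes of which 2 were at least 2-fold higher and 2 at least 2-fold lower.

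Apart from Tmem173, genes of innate immunity were called about as often as all genes: of 20 interferon and antigen presentation genes 3 were at least 2-fold higher and 4 at least 2-fold lower (median 0.12), with Stat3 at 46.5 and 81.1 CPM. Of 19 NF-kB and inflammation genes 2 were at least 2-fold higher and 3 at least 2-fold lower (median 0.26), and the kinase gene Chuk was at 151 and 181 CPM. C1qb, a complement subunit best known from microglia and macrophages, was at 10 CPM or more in 36 of 38 Ctrl and all 26 Exp IHCs, and 2.43-fold higher in the latter. Its partner genes C1qa and C1qc reached 10 CPM in at most 1 cell of either group, and Ptprc, Cd52 and Cx3cr1 of immune cells in none. Cnp, a myelin enzyme of glia, was at 156 and 501 CPM while Pmp22 of glia was at 0. Of the neuron genes, Gap43, a growth cone protein, was in 4 of 38 Ctrl IHCs and 14 of 26 Exp IHCs at 10 CPM or more, and Nefm, a neurofilament, had 0.136 to 577 CPM in Ctrl IHCs (median 136) and 87.7 to 1683 CPM in Exp IHCs (median 462). Nefl, another neurofilament, and Snap25 of synapses were in every cell of both groups at 10 CPM or more, at 375.7 and 573.2 CPM and at 202.5 and 295.6 CPM. The neuronal RNA-binding proteins Elavl3 and Elavl4 each reached 10 CPM in 2 Exp IHCs, and in 0 and 5 Ctrl IHCs. Tubb3, Stmn2 and Nefh of neurons did not reach 10 CPM in any Exp IHC, and did so in 2, 2 and 0 Ctrl IHCs. Map2, also on the neuron list, was lower, at 91.0 and 63.2 CPM. It was at 10 CPM or more in 37 of 38 Ctrl IHCs and 19 of 26 Exp IHCs. Summed over the 12 neuron genes, the median cell was at 822 CPM in Ctrl IHCs and 1473 CPM in Exp IHCs, and their part in the other results was not tested. Of 16 neurotrophin and growth factor receptor genes 6 were at least 2-fold higher and 1 at least 2-fold lower (median 0.47): Vegfd was in 7 of 38 Ctrl IHCs and 21 of 26 Exp IHCs and Ptn in 11 of 38 Ctrl IHCs and 22 of 26 Exp IHCs. Pdgfra, a receptor of mesenchyme, was lower (109 and 31.4 CPM). Of the other mesenchyme genes, the collagen Col1a1 was at 10 CPM or more in 4 of 38 Ctrl IHCs and 5 of 26 Exp IHCs, and Dcn and Lum each in 1 Ctrl IHC. Col3a1 and Pou3f4 were at 0 in every IHC.

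Core metabolism was close to the background or below it in the number of calls. The counts were 1 higher and 3 lower of 20 (median -0.03) for glycolysis, 1 higher and 3 lower of 33 (median -0.01) for the tricarboxylic acid cycle, 2 higher and 2 lower of 25 (median -0.01) for fatty acid oxidation and 3 higher and 2 lower of 26 (median -0.04) for cholesterol synthesis. Within glycolysis Ldhb, a lactate dehydrogenase subunit, stood apart with 102 to 1048 CPM in Ctrl IHCs (median 492) and 0.177 to 409 CPM in Exp IHCs (median 105). It was 3.92-fold lower (log2 -1.97, -1.99 to -1.96), and Pfkl of the same pathway was at 89.9 and 185 CPM. Pdk1, which shuts pyruvate out of the mitochondrion, was at 52.0 and 16.0 CPM and in 30 of 38 Ctrl IHCs and 8 of 26 Exp IHCs. Hsd17b7 of cholesterol synthesis was at 408 and 118 CPM, and the earlier enzyme Mvk at 17.2 and 54.5 CPM. The fatty acid binding proteins parted, with Fabp5 at 9.39 and 41.7 CPM and Fabp3 at 20.1 and 3.71 CPM. Of 22 genes of serine, folate and amino acids 4 were at least 2-fold higher and 1 at least 2-fold lower (median 0.44). Psat1, an enzyme of serine synthesis, had 0.273 to 1152 CPM in Ctrl IHCs (median 327) and 569 to 1661 CPM in Exp IHCs (median 950), and the Exp IHC was the higher in 95.7% of pairs of cells. Mthfd2, of mitochondrial folate metabolism, was at 56.6 and 122 CPM. Amino acid transporters had 3 higher and 3 lower of 18 (median 0.30), antioxidant genes 2 higher and 1 lower of 34 (median 0.07) and genes of iron and metals 3 higher and 3 lower of 24 (median 0.26). In the last list the iron importer Tfrc was at 22.8 and 57.7 CPM and Aco1, an iron sensor, at 32.6 and 11.9 CPM. Prdx4, a peroxidase of the endoplasmic reticulum, was at 9.91 and 24.8 CPM.

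The machinery that makes and removes proteins held close to equal levels. No member was called among 38 cytosolic ribosomal proteins (median 0.05, -0.08 to 0.13) or 33 proteasome genes (median 0.05, -0.09 to 0.24). Their highest members by summed level, Rpl41 and Psmb1, were at 1191 and 1427 CPM and 401 and 503 CPM. The counts were 2 higher and 1 lower of 31 (median 0.00) for the mitochondrial ribosome and import, 3 higher and 0 lower of 34 (median 0.08) for translation factors and 1 higher and 1 lower of 32 (median 0.07) for autophagy. They were 3 higher and 1 lower of 36 (median -0.05) for the lysosome, 5 higher and 1 lower of 30 (median 0.20) for chaperones of the endoplasmic reticulum, 1 higher and 4 lower of 27 (median 0.05) for cytosolic chaperones and 2 higher and 4 lower of 35 (median -0.11) for ubiquitin enzymes. Single genes passed 2-fold within these lists. Cars, the cysteinyl-tRNA synthetase, had 0 to 226 CPM in Ctrl IHCs (median 28.3) and 0.0628 to 440.2 CPM in Exp IHCs (median 169), and Polg, the mitochondrial DNA polymerase, 0 to 276 CPM in Ctrl IHCs (median 7.60) and 0 to 338 CPM in Exp IHCs (median 126). Tfeb, a regulator of lysosome genes, was at 12.7 and 40.1 CPM, the lysosomal enzyme Gusb at 31.9 and 90.5 CPM, and the deubiquitinase Cyld at 327 and 155 CPM. The chaperone Hspa5 was within 2-fold (626 and 843 CPM).

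Among 43 genes of actin nucleation and its regulators 6 were at least 2-fold higher and 5 at least 2-fold lower (median 0.03). Cap2, which recycles actin monomers, had 0 to 108 CPM in Ctrl IHCs (median 0.112) and 0.135 to 325 CPM in Exp IHCs (median 141) (log2 3.52, 3.48 to 3.57), and Rac3 was at 22.3 and 67.5 CPM. Of 20 genes of the sarcomere and muscle 5 were at least 2-fold higher and 3 at least 2-fold lower, and the level per cell summed over them was 4737 to 8744 CPM in Ctrl IHCs (median 5802) and 3852 to 6084 CPM in Exp IHCs (median 4647). The myosin light chain Myl4 was at 74.3 and 14.6 CPM and in 33 of 38 Ctrl IHCs and 9 of 26 Exp IHCs, and Lmod3, which nucleates actin in muscle, at 492 and 227 CPM. Of 16 intermediate filament and septin genes 4 were at least 2-fold higher and 2 at least 2-fold lower, with lamin A (Lmna) at 17.6 and 36.6 CPM.

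Of 47 RNA-binding proteins with restricted expression 10 were at least 2-fold higher and 3 at least 2-fold lower (median -0.07), and Rbm24 itself is among the latter. The splicing regulator Rbfox3 had 0 to 144 CPM in Ctrl IHCs (median 19.4) and 11.0 to 440.3 CPM in Exp IHCs (median 60.3) (log2 1.92), and Khdrbs2 was in 12 of 38 Ctrl IHCs and 22 of 26 Exp IHCs. Fmr1 was at 41.9 and 16.6 CPM. Of 49 genes of mRNA decay 1 was at least 2-fold higher and 2 at least 2-fold lower (median 0.21): Cnot10 was at 59.6 and 143 CPM, the reader of methylated mRNA Ythdf1 at 103 and 38.2 CPM and Smg5 of nonsense-mediated decay at 27.3 and 12.6 CPM. Chromatin modifiers had 2 higher and 4 lower of 50 (median 0.26), with the deacetylase Hdac3 at 411 and 192 CPM. Histones had 2 higher and 0 lower of 25 (median 0.49). The linker histone Hist1h1c was at 105 and 219 CPM. Of 43 homeobox, Sox and zinc-finger factors 11 were at least 2-fold higher and 5 at least 2-fold lower. Eya2, a co-activator of transcription in sensory organs, had 0 to 102 CPM in Ctrl IHCs (median 0) and 0 to 309.8 CPM in Exp IHCs (median 104) (log2 3.90, 3.84 to 3.96), and Sox9, a factor of supporting cells, was in 5 of 38 Ctrl IHCs and 14 of 26 Exp IHCs. The bHLH and Id factors had 6 higher and 2 lower of 21 (median 0.70), and their summed level was higher in Exp IHCs: it was 471 to 1797 CPM in Ctrl IHCs (median 1033) and 1184 to 2343 CPM in Exp IHCs (median 1692). Nuclear receptors had 3 higher and 3 lower of 27 (median -0.05), with the mineralocorticoid receptor Nr3c2 at 8.22 and 28.5 CPM.

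Of 17 genes of the circadian clock 1 was at least 2-fold higher and 6 at least 2-fold lower (median -0.47, -2.14 to 0.11), against 11.7% of all genes lower, in a list whose interval holds 0. Rorb, described above, belongs to it. Among 23 cyclin-dependent kinase inhibitors and cyclins 3 were at least 2-fold higher and 7 at least 2-fold lower (median -0.51, -1.55 to 0.47), and Cdkn1c and Ccnd1 were its extremes. That median was 0.17 in the cells with Xist and 0.18 for genes at 10 CPM or more, so that its sign turned. Of 23 imprinted genes 4 were higher and 1 lower: besides Cdkn1c, Nnat, a small membrane protein of neurons and endocrine cells, was in 7 of 38 Ctrl IHCs and 18 of 26 Exp IHCs at 10 CPM or more. Long noncoding and structural RNAs had 6 higher and 2 lower of 17 (median 0.48). Xist is among the 6, next to the unequal mix of sexes (12 of 38 Ctrl IHCs and 19 of 26 Exp IHCs with Xist). Snhg11 was at 10.3 and 102 CPM, and Rn7sk, the RNA that holds back transcription elongation, at 68.0 and 24.7 CPM. Of 37 genes of DNA damage and repair 6 were at least 2-fold higher and 4 at least 2-fold lower, and of 35 genes of the Bcl-2 family, caspases and p53 targets 7 were at least 2-fold higher and 4 at least 2-fold lower, with medians of 0.23 and 0.14. Gadd45g, induced by growth arrest and DNA damage, was at 6.94 and 56.8 CPM, and Gadd45b at 12.6 and 48.2 CPM. The p53 targets parted, with Perp at 11.7 and 42.1 CPM and Zmat3 at 62.2 and 28.5 CPM. Immediate early genes, which respond within minutes and also to dissociation, had 9 of 19 higher and 2 lower (median 0.97, -0.51 to 2.27). Egr1 ranged over 0 to 1154 CPM in Ctrl IHCs (median 49.2) and 0.0933 to 1470 CPM in Exp IHCs (median 102), and Ier2 was at 42.0 and 164 CPM. Within cells with Y-linked transcripts 5 of the 19 were higher and 4 lower, and in the cells with Xist 12 and 4. Of all 14557 genes 3278 were higher and 3057 lower in the first set, and 3421 and 2505 in the second.

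Because the sexes were mixed unequally, each named gene was also compared within the cells with Y-linked transcripts (26 Ctrl and 7 Exp) and within the cells with Xist (12 Ctrl and 19 Exp). Of 168 named genes called at 2-fold, 19 were no longer called with the same sign within the first set and 24 within the second. The sign turned for Id1, Hist1h1c and Zmat3 in cells with Y-linked transcripts (log2 -0.70, -0.10 and 0.41), and for Smg5 and Ccn1 in cells with Xist (0.28 and -1.62). In the Y-linked set the log2 ratios under 1 in size included Cnot10 0.80, Ctnna2 0.40, Gad2 0.68, Gadd45g 0.80, Hes6 0.17, Ier2 0.52, Kcnma1 -0.66, Mvk 0.96, Pfkl 0.32, Rxra 0.82 and Tfeb 0.95. In the Xist set they included Adam10 0.69, Cyld -0.87, Fmr1 -0.71, Hdac3 -0.77, Hist1h1c 0.61, Igfbp5 0.66, Kif21b -0.64, Lmna 0.53, Mthfd2 0.44, Prdx4 0.92, Ptn 0.56, Rbfox3 0.99, Sesn3 -0.81, Syt1 0.93, Tfrc 0.88 and Tmod1 0.83. Without the 8 Ctrl IHCs that hold supporting cell genes, 8 named genes lost their call, with ratios of Ccn1 0.88, Hes6 0.97, Lmna 0.94, Sesn3 -0.95, Smg5 -0.95 and Zmat3 -0.93 among those described here. Without the top cell of either group Ccn1 was -0.01 and Tmod1 0.91, while Cadm1, Crym, Dkk3, Eya2, Nnat, Fabp3, Spred1 and Rn7sk had larger ratios (4.95, 4.65, 3.17, 4.50, 4.46, -3.48, -3.62 and -2.20).

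**Figure D5:**
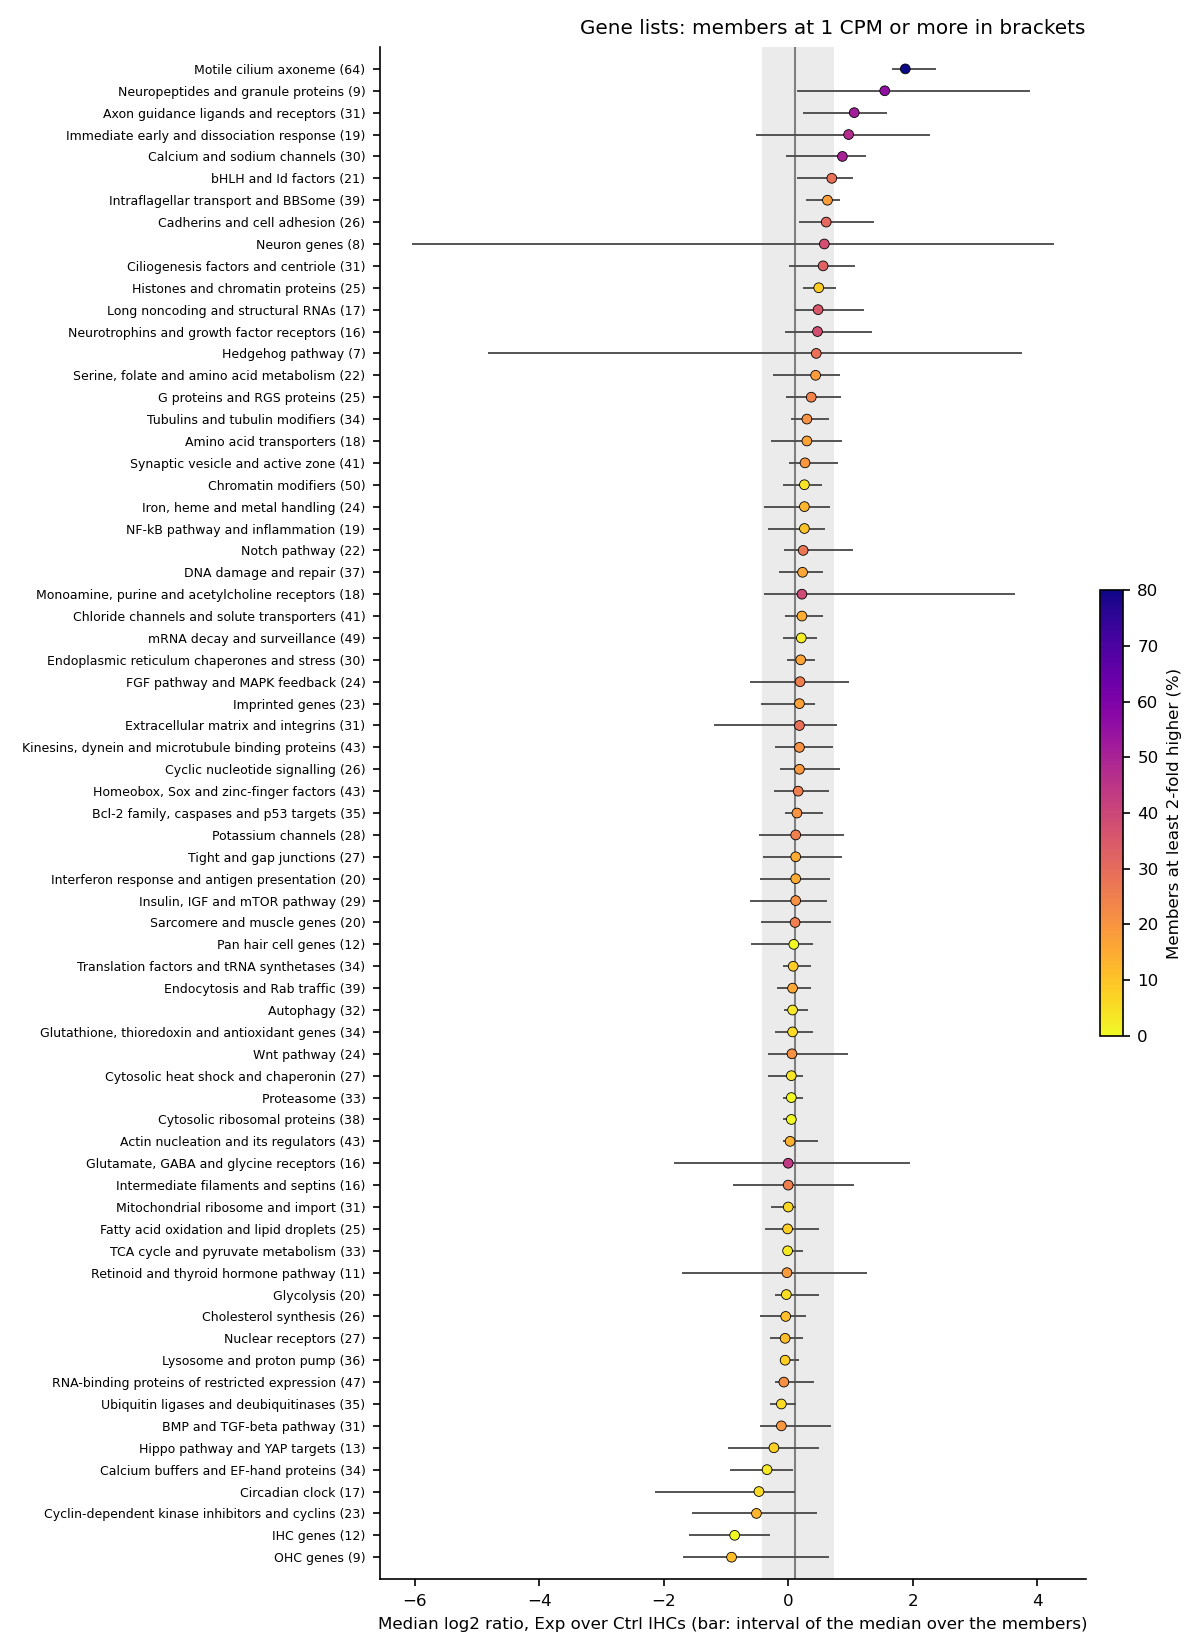
Median log2 ratio of Exp over Ctrl cells for each list with at least 6 members at 1 CPM or more (member number in brackets), with the interval of the median as a bar and the share of members at least 2-fold higher as colour; grey marks the quartiles and median of all 14557 genes. The motile axoneme list lies highest, at 1.88, and the supporting cell list (median -9.97) is left out as off the scale.

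The same genotypes differ in OHCs, and the values are set side by side. Of the 2734 genes at least 2-fold higher in IHCs 1285 (47.0%) were also 2-fold higher in OHCs, which is 48.8% of the 2631 higher there. Of the 1709 lower genes 650 (38.0%) were lower in OHCs, 33.7% of 1926. For the axoneme list 39 genes were higher in both, 76.5% of the 51 in IHCs and 83.0% of the 47 in OHCs. Nek5, a kinase gene on that list, was at 0.539 and 37.5 CPM in IHCs and at 0.00500 and 45.5 CPM in OHCs, and 1 Ctrl IHC gave 100% of its Ctrl level. Dnah5 and Dnah10 were higher in IHCs (3.22 and 1.87) and had ratios of -0.65 and -0.45 in OHCs. For Dnah5, too, 1 Ctrl IHC gave 100% of the Ctrl level, and 4 of 26 Exp IHCs held it at 10 CPM or more. These 3 genes were picked after their values were seen, and the differences between IHCs and OHCs were not tested.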

How the data were processed

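Single cells were sequenced as full-length cDNA libraries without molecular identifiers. The authors deposited whole-number read counts per gene and cell, made with HISAT2 2.2.1, SAMtools and featureCounts 2.0.1 on mm10 per the submitters' processing notes. The annotation used for counting, how strand was set and how shared reads were handled are not given in the sources used here. Of 55291 gene identifiers 99.5% matched GENCODE vM21, which gave symbols and coordinates. Groups were taken from the labels, and the columns of 38 Ctrl and 26 Exp IHCs were used. No 2 libraries of a group agreed within sampling noise (chi-square per degree of freedom at least 282).

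Counts were added up over the cells of a group and scaled by their total to CPM. Genes whose group levels average at least 1 CPM were kept, and a call was a ratio of at least 2-fold. Intervals of levels and ratios are exact at 95% and cover counting error only. Those of shares are exact binomial over cells, as if cells were independent draws, and those of list medians are over the members. None covers the spread between animals. A group's level of 10 CPM has an interval of 9.67 to 10.3 CPM, and 0 counts were read as at most 3 counts per group. A sum of 0 counts allows 0.00861 CPM in Ctrl IHCs and 0.00822 CPM in Exp IHCs. If cells were independent draws, which is not known here, a gene seen in 0 of 38 cells may be in up to 7.89% of cells. For 0 of 26 cells that bound is 11.5%. These bounds read 0 cells as at most 3 cells and are not the exact binomial intervals given for other shares. The calculation was checked on simulated data. Depth was equalised by thinning each cell to the depth of the shallowest cell. TMM factors came from edgeR 4.0.16 and medians of ratios from DESeq2 1.42.0 (R 4.3.3). The rest used Python 3.11.15 with numpy 2.4.6, pandas 2.3.3 and scipy 1.17.1. With each cell a GEO sample and no animal named, no statistical test between genotypes was run.

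Named genes were Rbm24 and the markers, the 12 highest and 12 lowest by median cell (1 CPM added, 10 CPM or more in either group), the 8 with the largest gain and 8 with the largest loss in the share of cells (a share of 25% to 75% where higher), and up to 2 members each way per list with a median cell of 10 CPM and a 2-fold ratio, or else the member with the highest level. Not every gene that the rule names is described. Mogat1 and single axoneme genes were named after their values were seen. The members and lists were chosen with earlier results of these data known, and Nek5, Fam92b, Slc52a3, Car7, Slc47a2, Mapk10, Vegfd and Pde1c joined lists with their OHC ratios known.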

Additional observations from a re-analysis of the deposited data

How the results depend on the processing

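No paired analysis was possible because each library is 1 cell, no animal is named and the labels do not say what a cell's number stands for. The numbers ran in blocks by sex. Exp IHCs 1 to 7 held Y-linked transcripts and Exp IHCs 8 to 26 held Xist. All Ctrl IHCs from 16 to 38 held Y-linked transcripts, and those with Xist had lower numbers. How many animals stand behind each set of cells is not known. Of 14557 genes 2734 were at least 2-fold higher and 1709 lower. By median cells 1360 were higher, at 10 CPM or more 1014 were higher and 518 lower, and with no filter and 0.1 CPM added 4521 were higher and 4505 lower. Lower genes numbered 3057 in the cells holding Y-linked transcripts and 3000 in those low in Gm15772 (under 40 CPM). The other counts under the alternatives stayed within 1.5 times the main ones, but the genes called differed. By median cells 762 of the 2734 higher genes and 442 of the 1709 lower genes kept their call. With Y-linked transcripts only 2053 and 1242 kept it, and in cells with Xist 2034 and 1332. The sign of a called gene turned in 15 comparisons. With Y-linked transcripts only, log2 ratios were 0.03 for Eif2s3y, -0.70 for Id1, -0.56 for Xist, -0.10 for Hist1h1c and 0.41 for Zmat3. Among cells low in Gm15772 they were 0.05 for Eif2s3y, -0.72 for Xist and 0.51 for Zmat3. Ccn1 was -3.82 by median cells, -0.01 without the top cell of either group, -1.62 in cells with Xist and -1.39 in those high in Gm15772. Smg5 was 0.28 in cells with Xist and 0.31 in those high in Gm15772, and Cblb was -0.45 by median cells. The cause was not tested. Of 168 named genes called at 2-fold, 30 lost the call among cells high in Gm15772, 11 by median cells and at most 4 under another scaling. Among list medians of at least 2-fold, that of the glial genes (1.35) turned its sign, to -0.58 without the top cells, -2.37 with Y-linked transcripts only and -2.04 among cells low in Gm15772. Some medians nearer 0 turned too, such as that of the cyclin list, to 0.17 in cells with Xist, 0.21 among cells high in Gm15772 and 0.18 at 10 CPM or more. The axoneme median was 1.48 among cells high in Gm15772, and the axon guidance median 0.10 and the cadherin median 0.08 by median cells. Thinned to equal depth, 3 genes in place of 4 had groups that did not overlap. Counts of a few reads limit the ratios of genes nearly absent from a group, such as Cfap161 and Nacad.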
